A study of Homo sapiens with 16 samples.

Results

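RNA was sequenced in NCI-H1944, a human lung adenocarcinoma line, and the comparison described here sets cells labelled STING knockout against cells labelled MAVS knockout after a pulse of an MPS1 inhibitor. It rests on the 4 libraries with these labels, 2 a side, of the 16 in the series. They were chosen by their labels and not by any measured value, and all 17950 genes with enough counts were tested. The pulse, called MPS1i below, was BAY-1217389 at 100 nM for 48 h, after which the drug was washed out and the cells were grown for a further 24 h. MPS1, encoded by TTK, is the kinase of the spindle assembly checkpoint, and its inhibition lets cells divide with wrongly segregated chromosomes. The same 2 lines after DMSO, the vehicle, gave 4 further libraries, and cells with both genes targeted (DKO, labelled STING/MAVS knockout) and with the control guide SCR (labelled wild type) gave the levels at either end. All groups were grown in the same serum-containing medium with antibiotics, among them plasmocin, which is directed at mycoplasma. The labels do not say whether a line is a clone or a pool, nor whether the 2 replicates of a group were separate cultures, so each p-value reflects only how far the libraries themselves vary, and that variation may be technical.

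STING and MAVS are the adaptors of separate alarms for misplaced nucleic acid. Cytosolic DNA is detected by cGAS, which makes the messenger cGAMP that switches on STING, while cytosolic RNA is detected by RIG-I (gene DDX58 in the table used here) and MDA5 (gene IFIH1), which act through MAVS. Both adaptors recruit TBK1 and IRF3 to turn on interferons, and both can activate NF-kB, the regulator of inflammatory cytokines; secreted interferon then induces a large set of antiviral genes through JAK kinases and transcription factors such as STAT2 and IRF9. In STING-guide cells the route that the labels leave intact is MAVS, and in MAVS-guide cells it is STING. Log2 fold changes are STING guide over MAVS guide, so a negative value means less transcript in the STING-guide cells, and each stands ± its standard error. Levels are given as CPM, counts relative to the normalized size of each library. Genes count as called where the adjusted p was under 0.05 in the quasi-likelihood test of edgeR, with p-values adjusted by Benjamini and Hochberg's method over all genes.

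Total counts were 26290514 and 28736653 in the STING-guide libraries after MPS1i and 33611396 and 38165853 in the MAVS-guide libraries after MPS1i. The transcripts of the targeted genes were examined first. STING1 (ENSG00000184584, chromosome 5, 139475533 to 139482935, GRCh38) stood at 5.99 and 5.89 CPM in STING-guide cells, against 17.2 and 19.9 CPM in MAVS-guide cells, 4.04 and 4.21 CPM in DKO cells and 29.1 and 28.9 CPM in SCR cells after the pulse. MAVS (ENSG00000088888, chromosome 20, 3846799 to 3876123) stood at 182 and 187 CPM in STING-guide cells, against 153 and 150 CPM in MAVS-guide cells, 186 and 191 CPM in DKO cells and 121 and 119 CPM in SCR cells. The STING1 transcript was thus 3.13-fold lower in the line with the STING guide (-1.65 ± 0.10, adjusted p = 1.25e-11). The MAVS transcript was lowest in SCR cells and differed by 0.29 ± 0.05 between the 2 lines (adjusted p = 8.46e-05). Since a guide may remove the protein and leave the RNA, the level of MAVS RNA does not check the MAVS label. TTK itself was slightly lower in STING-guide cells (-0.27 ± 0.08, adjusted p = 0.0197), a call that was lost when STING replicate 2 or either MAVS library was left out.

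After the pulse, the cells left with MAVS held less of many immune transcripts than the cells left with STING. Antiviral genes, MHC class I and inflammatory cytokines were lower in STING-guide cells, while iron, NRF2 and translation genes were among those that were higher. Of 17950 genes, 1926 were called (10.7%), 1047 lower (5.83%) and 879 higher (4.9%) in STING-guide cells. The larger differences ran mostly one way. At least 2-fold, 120 genes were lower (0.669%) and 17 were higher (0.0947%), and the median log2 fold change of all genes was -0.01. DESeq2 called 69 lower and 6 higher at this size. The number higher was 8 without STING replicate 2, 31 with no filter on low counts and 30 when only the groups compared were fitted. The counts fell to 1176 without STING replicate 1, 978 without STING replicate 2, 1069 without MAVS replicate 1 and 1116 without MAVS replicate 2. The larger number of lower calls held in each of these 4, but not when only the groups compared were fitted (1247 lower, 1283 higher). The fit repeated without the genes of the 2 chromosome ends described further on called 946 each way. In bulk RNA, fewer responding cells and less RNA per responding cell cannot be told apart.

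The gap between the lines was not the same without the pulse. Under DMSO, 831 genes were called (4.63%), 386 lower (2.15%) and 445 higher (2.48%) in STING-guide cells. The number called was 458 without STING replicate 1, 394 without STING replicate 2, 422 without MAVS replicate 1 and 427 without MAVS replicate 2 of the DMSO libraries. The DMSO libraries are none of those in the comparison after MPS1i. The genes lower in both conditions numbered 199, which is 19% of those lower after MPS1i and 51.6% of those lower under DMSO, and the genes higher in both numbered 83, or 9.44% and 18.7%. A further 16 genes were lower after MPS1i and higher under DMSO, and 4 the other way round. The test of the difference itself, that is of the pulse's effect in STING-guide cells minus its effect in MAVS-guide cells, called 700 genes (3.9%), 352 positive (1.96%) and 348 negative (1.94%). That number was between 369 and 517 when any 1 of the 8 libraries was left out, the lowest without the second STING-guide DMSO library and the highest without the first pulsed STING-guide library.

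**Figure D1:**
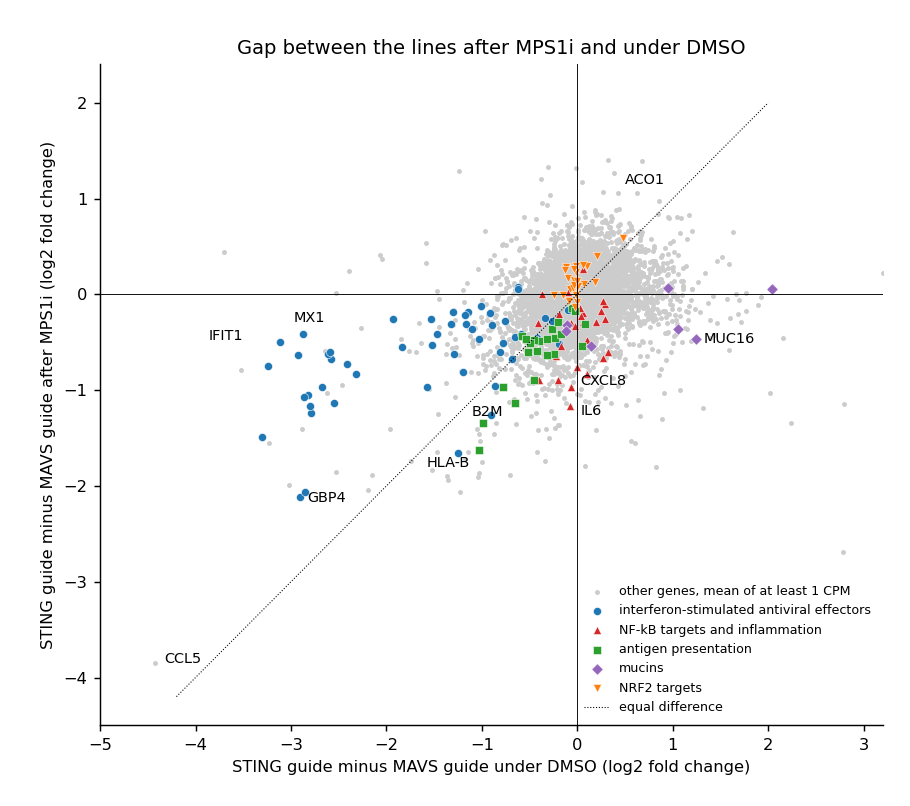
Each point is a gene with a mean of at least 1 CPM, with the log2 fold change of STING guide over MAVS guide after MPS1i on the y axis and under DMSO on the x axis; 10 of 13890 genes lie outside the axes. Antiviral effectors such as IFIT1 (-0.50 after MPS1i, -3.11 under DMSO) lie left of and above the dotted line of equal difference, inflammatory genes such as IL6 (-1.16 and -0.08) lie straight below the zero line, and MUC16 changes sign (-0.46 and 1.24).

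Interferon-stimulated antiviral effectors, the genes that block viral entry, translation and RNA, were lower in STING-guide cells almost throughout, and by a modest factor. IFIT1 (ENSG00000185745, chromosome 10, 89392546 to 89406487), which binds foreign RNA, stood at 707 and 679 CPM in STING-guide cells, against 1010 and 951 CPM in MAVS-guide cells after MPS1i. Under DMSO it stood at 12.2 and 16.2 CPM in STING-guide cells, against 132 and 111 CPM in MAVS-guide cells. The pulsed DKO cells held 6.74 and 7.38 CPM of IFIT1, and the pulsed SCR cells 2088 and 2169 CPM. Both STING-guide libraries lay below both MAVS-guide libraries in either condition, and both lines lay between DKO and SCR after the pulse. The difference was -0.50 ± 0.08 after MPS1i (adjusted p = 0.00147) and -3.11 ± 0.11 under DMSO (adjusted p = 8.13e-10). The pulse thus narrowed the gap in IFIT1 by 2.61 ± 0.14 on the log2 scale (adjusted p = 1.26e-07).

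Of 52 effectors tested, 45 were lower after MPS1i, where 5.83% of all genes were, none was higher, and the median was -0.52, against -0.01 over all genes. Under DMSO 49 were lower, where 2.15% of all genes were, with a median of -1.30. A positive difference of effects was called in 35 (1.96% of all genes) and a negative one in none. HERC5, the ligase that attaches ISG15 to proteins, stood at 54.9 and 52.3 CPM in STING-guide cells, against 90.3 and 89.3 CPM in MAVS-guide cells after MPS1i, and at 1.36 and 1.26 CPM against 12.3 and 12.8 CPM under DMSO (difference of effects 2.50 ± 0.14, adjusted p = 1.26e-11). The GTPase MX1 (2.46 ± 0.10), IFI44L (2.29 ± 0.08), the RNA-binding IFIT3 (1.996 ± 0.14), the RNA-sensing enzyme OAS2 (1.99 ± 0.07) and the ubiquitin-like modifier ISG15 (1.71 ± 0.24) behaved in the same way. After MPS1i these 5 differed by between -0.97 (ISG15) and -0.41 (MX1).

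Other antiviral effectors had gaps after the pulse of about 2-fold or more. GBP4, a guanylate-binding GTPase, stood at 4.31 and 4.43 CPM in STING-guide cells, against 18.8 and 19.2 CPM in MAVS-guide cells, a 4.34-fold lower level (-2.12 ± 0.12, adjusted p = 5.45e-12). RSAD2, the antiviral enzyme viperin, stood at 38.4 and 39.4 CPM against 164 and 162 CPM (-2.07 ± 0.20, adjusted p = 0.00024). The exonuclease gene ISG20 (-1.66 ± 0.11) and the OAS relative OASL (-1.49 ± 0.07) followed. IFI27 differed by -1.17 ± 0.06 and the restriction factor TRIM22 by -0.96 ± 0.06. OASL and IFI27 had wider gaps under DMSO, at -3.31 and -2.80, and their differences of effects of 1.81 ± 0.16 and 1.64 ± 0.12 were called. For GBP4, RSAD2, ISG20 and TRIM22 the difference of effects did not pass (adjusted p = 0.36, 0.61, 0.35 and 0.75), with DMSO differences of -2.91, -2.86, -1.25 and -0.87. Of the effectors not called after MPS1i, GBP2, HELZ2, TRIM21, the kinase PKR gene EIF2AK2, APOL6 and TRIM25, singled out after their values were seen, had values between -0.28 and 0.08. Of the largest falls outside the list, PLAAT4 (-2.07 ± 0.17), APOL3 (-2.04 ± 0.22), the NKG2D ligand gene RAET1L (-1.99 ± 0.33) and the lysosomal protein gene LAMP3 (-1.88 ± 0.10) had differences under DMSO of -1.23, -2.19, -3.02 and -2.16.

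**Figure D2:**
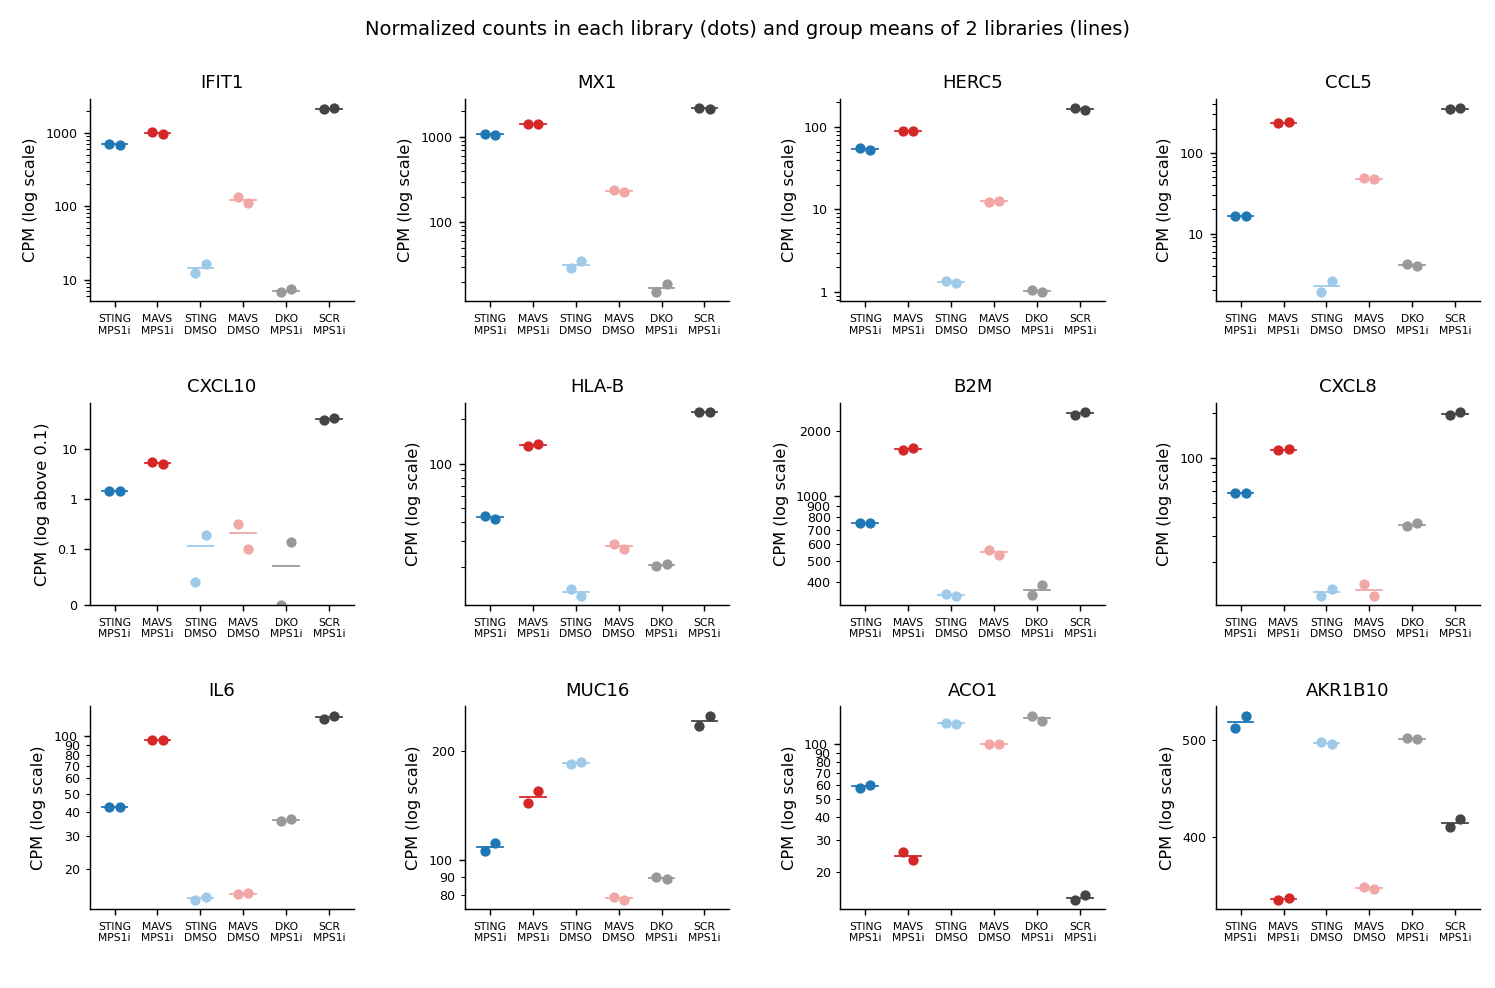
Each panel shows 1 gene in CPM on a log axis (for CXCL10, linear below 0.1), with dots for the 2 libraries of each group and lines for their means. IFIT1, MX1 and HERC5 are closer together in the STING-guide and MAVS-guide libraries after MPS1i than under DMSO, CXCL8 and IL6 are close under DMSO and apart after MPS1i, and ACO1 and AKR1B10 are higher in the STING-guide libraries in both conditions.

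The promoters of 5 genes are shown because the gap took different courses in them. Each line gives the 250 bases before the gene's start on its own strand, from RefSeq (GRCh38.p14), for IFIT1 (chr10:89392373-89392622, plus strand), HERC5 (chr4:88456869-88457118, plus), B2M (chr15:44711267-44711516, plus), CXCL8 (chr4:73740319-73740568, plus) and CXCL10 (chr4:76023498-76023747, minus). Capitals mark matches, on either strand, to GAAA, any 2 bases and GAAA, letters of the element bound by interferon-activated factors, or to GGAANTTCC, where N is any base, letters of an NF-kB site.
IFIT1: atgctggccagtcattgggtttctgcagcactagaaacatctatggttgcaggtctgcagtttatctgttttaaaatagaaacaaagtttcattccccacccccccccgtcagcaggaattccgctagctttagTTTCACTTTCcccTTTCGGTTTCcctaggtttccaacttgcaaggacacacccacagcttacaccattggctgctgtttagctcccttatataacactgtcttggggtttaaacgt
HERC5: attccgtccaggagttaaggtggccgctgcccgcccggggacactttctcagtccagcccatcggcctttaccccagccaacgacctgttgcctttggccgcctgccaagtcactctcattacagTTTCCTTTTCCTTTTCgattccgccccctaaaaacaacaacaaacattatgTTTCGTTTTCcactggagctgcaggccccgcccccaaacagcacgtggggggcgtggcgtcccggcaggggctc
B2M: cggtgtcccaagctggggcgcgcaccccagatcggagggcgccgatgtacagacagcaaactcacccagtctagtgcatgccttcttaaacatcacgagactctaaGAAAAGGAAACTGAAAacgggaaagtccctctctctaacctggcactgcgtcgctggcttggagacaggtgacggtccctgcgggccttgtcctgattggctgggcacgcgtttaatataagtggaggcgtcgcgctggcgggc
CXCL8: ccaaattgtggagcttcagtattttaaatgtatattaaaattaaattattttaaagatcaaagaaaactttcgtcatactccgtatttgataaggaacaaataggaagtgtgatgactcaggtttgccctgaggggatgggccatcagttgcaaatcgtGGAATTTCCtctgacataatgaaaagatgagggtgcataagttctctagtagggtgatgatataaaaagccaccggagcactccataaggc
CXCL10: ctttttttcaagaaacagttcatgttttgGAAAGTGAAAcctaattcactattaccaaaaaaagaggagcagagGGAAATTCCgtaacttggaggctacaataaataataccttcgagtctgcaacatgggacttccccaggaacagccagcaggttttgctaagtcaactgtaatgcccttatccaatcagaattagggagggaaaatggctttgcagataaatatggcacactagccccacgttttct
The first letters of a match lie 116 and 103 bases before the start in IFIT1, 125, 119 and 74 in HERC5, 144 and 138 in B2M, and 91 in CXCL8. In CXCL10 the interferon-type match begins 221 bases and the NF-kB-type match 176 bases before the start. The matches at 125 and 119 in HERC5 overlap, as do those at 144 and 138 in B2M.

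These letters were searched in the 300-base window around the start (250 before, 50 after) of the 11911 tested genes with a RefSeq promoter. The interferon-type letters were in 3.05% of them and in 9.67% of the 807 genes lower after MPS1i. Of 39 lower genes whose difference of effects was positive, 23 held them (59%). Of 122 lower genes whose difference of effects was negative, 2 held them (1.64%). The NF-kB-type letters were in 1.03% of all tested promoters, in 5.13% of the first of these sets and in 4.92% of the second. Among the 697 genes higher after MPS1i the shares were 1.58% and 0.717%. These sets come from comparisons that share libraries, and a match is a description of the letters, not of a bound factor.

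Interferon transcripts themselves were scarce in both lines. IFNB1, the type I interferon, had 5 and 19 counts in STING-guide cells, against 6 and 8 counts in MAVS-guide cells after MPS1i, and the 2 groups overlapped (1.13 ± 0.56, adjusted p = 0.226). The type III interferon IFNL1 had 25 and 29 counts against 42 and 64 counts (-0.59 ± 0.26, adjusted p = 0.163). Of the type III genes, IFNL2 was higher in STING-guide cells, at 1.98 and 2.08 CPM against 1.28 and 1.05 CPM (0.80 ± 0.25, adjusted p = 0.0355). That call was lost without any 1 of the 4 libraries, and IFNL2 may share reads with IFNL3, which stood at 0.01. Both DKO libraries had no counts of IFNB1 or IFNL1 after the pulse, while SCR cells held 4.64 and 5.06 CPM of IFNB1 and 13 and 11.6 CPM of IFNL1, above either line.

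Among the chemokines that draw in T cells, CCL5 differed most. CCL5 (ENSG00000271503, chromosome 17, 35871491 to 35880793) stood at 16.3 and 16.4 CPM in STING-guide cells, against 234 and 238 CPM in MAVS-guide cells after MPS1i. Under DMSO it stood at 1.89 and 2.63 CPM in STING-guide cells, against 48.9 and 47.2 CPM in MAVS-guide cells. The replicates of each group lay close together, and MAVS-guide cells under DMSO held more CCL5 than STING-guide cells after the pulse. The level was 14.4-fold lower after MPS1i (-3.85 ± 0.07, adjusted p = 1.45e-23), the largest fall of any called gene averaging 1 CPM or more. CXCL10 stood at 1.45 and 1.49 CPM against 5.63 and 5.12 CPM (-1.87 ± 0.21, adjusted p = 9.06e-07), far below the 38.9 and 42.5 CPM of SCR cells, and its relative CXCL11 differed by -1.88 ± 0.22. CCL20, which attracts cells bearing CCR6, differed by -1.27 ± 0.26 after MPS1i and by 0.65 under DMSO (difference of effects -1.92 ± 0.53, adjusted p = 0.0383). That last call was lost without any 1 of 7 of the 8 libraries, STING DMSO replicate 2 being the exception. Of 10 interferon and chemokine genes tested, 4 were lower and 1 higher after MPS1i (median -0.29), against 5.83% and 4.9% of all genes. Under DMSO 1 was lower, against 2.15% of all genes.

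The sensors upstream of the adaptors were lower in STING-guide cells as well. DDX58 stood at 488 and 471 CPM in STING-guide cells, against 732 and 712 CPM in MAVS-guide cells after MPS1i (-0.59 ± 0.06, adjusted p = 2.51e-07), and IFIH1 at 273 and 253 CPM against 382 and 366 CPM (-0.51 ± 0.06, adjusted p = 5.8e-06). Both gaps had been wider under DMSO (-1.76 and -1.63), and the difference of effects was 1.17 ± 0.09 for DDX58 and 1.12 ± 0.10 for IFIH1. In the RNA sensing list, 7 of 14 members were lower under DMSO, where 2.15% of all genes were. After MPS1i 6 were lower and 2 higher (median -0.14), against 5.83% and 4.9% of all genes. The lower ones included ZC3HAV1, which binds viral RNA rich in CpG (-0.54 ± 0.04), and TLR3, the endosomal sensor of double-stranded RNA (-0.68 ± 0.07). The 2 higher ones were MAVS and TRAF3, an adaptor downstream of it (0.17 ± 0.05, adjusted p = 0.0448), and their number fell to 1 without any of the 4 libraries.

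In the DNA sensing list, 4 of 15 members were lower under DMSO, where 2.15% of all genes were. After MPS1i 7 were lower and none was higher (median -0.23), against 5.83% and 4.9% of all genes. Besides STING1 they included SAMHD1, which degrades dNTPs (-0.47 ± 0.06), the nuclear DNA sensor IFI16 (-0.23 ± 0.04) and the RNA editor ADAR (-0.18 ± 0.04). AIM2, an inflammasome sensor of DNA, had 4 and 3 counts in STING-guide cells, against 31 and 24 counts in MAVS-guide cells, and its call was lost without STING replicate 2. CGAS stood at 41.3 in both STING-guide libraries, against 52.5 and 46.9 CPM in MAVS-guide libraries (-0.27 ± 0.08, adjusted p = 0.0308), and lost its call without either STING library or without MAVS replicate 1.

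Part of the machinery that relays interferon was lower in STING-guide cells after the pulse, by small amounts. Values over the list lay between -0.54 and 0.20. Of 22 receptors, JAK kinases, STATs and IRFs, 5 were lower and none higher after MPS1i (median -0.11), against 5.83% and 4.9% of all genes. Under DMSO 5 were lower, against 2.15% of all genes. USP18, the brake on interferon receptor signalling, stood at 88.0 and 87.3 CPM in STING-guide cells, against 124 and 118 CPM in MAVS-guide cells (-0.46 ± 0.07). STAT2 (-0.19 ± 0.05), the STAT inhibitor PIAS1 (-0.20 ± 0.05) and IRF7 (-0.30 ± 0.08) were lower too. Their calls were lost when single libraries were left out, and the count fell to 2 without STING replicate 1 or MAVS replicate 2 and to 3 without MAVS replicate 1. For USP18, IRF7 and STAT2 the gap under DMSO was wider, at -1.84, -1.65 and -0.72, and each difference of effects was called.

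MHC class I and its peptide supply were lower in STING-guide cells, and for the main chains the gap widened with the pulse. HLA-B (ENSG00000234745, chromosome 6, 31353872 to 31357188) stood at 44.1 and 42.3 CPM in STING-guide cells, against 131 and 134 CPM in MAVS-guide cells after MPS1i, and at 14.3 and 12.7 CPM against 28.8 and 26.5 CPM under DMSO. B2M, the light chain of every MHC class I molecule (chromosome 15, 44711487 to 44718851), stood at 753 and 751 CPM against 1629 and 1662 CPM after MPS1i, and at 351 and 345 CPM against 563 and 534 CPM under DMSO. Replicates lay close together, and the groups did not overlap in either condition. HLA-B was 3.08-fold lower (-1.62 ± 0.06, adjusted p = 5.58e-15) and B2M 2.19-fold lower (-1.13 ± 0.05, adjusted p = 2.49e-14) after the pulse. Their differences of effects were -0.59 ± 0.11 (adjusted p = 0.00114) and -0.47 ± 0.07 (adjusted p = 7.98e-05), and that of HLA-C was -0.44 ± 0.09 (adjusted p = 0.0077).

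Of 24 antigen presentation genes tested, 19 were lower and none was higher after MPS1i (median -0.50), against 5.83% and 4.9% of all genes. Under DMSO 14 were lower (median -0.41), against 2.15% of all genes. A negative difference of effects was called in 3 (1.94% of all genes) and a positive one in none. HLA-F (-1.35 ± 0.10), HLA-C (-0.89 ± 0.06) and HLA-E, the ligand of the NKG2A receptor of natural killer cells (-0.59 ± 0.05), were among the lower genes. The immunoproteasome subunit gene PSMB9 (-0.97 ± 0.09), the peptide transporter gene TAP1 (-0.60 ± 0.08) and NLRC5, which switches on MHC class I transcription (-0.43 ± 0.07), named here for their roles, were lower as well. HLA genes resemble one another, and reads shared between them cannot be told apart here. The 5 members not called, named after their values were seen, were the class II genes HLA-DRB1, HLA-DRA, CD74 and CIITA and the immunoproteasome gene PSMB10, with values between -0.83 and -0.31.

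Among checkpoint and cell death ligands and receptors, 2 of 21 were lower under DMSO, where 2.15% of all genes were. After MPS1i 10 were lower and none was higher (median -0.25), against 5.83% and 4.9% of all genes. The count fell to 6 without MAVS replicate 2. TNFSF10, which encodes the death ligand TRAIL, stood at 43.8 and 39.7 CPM in STING-guide cells, against 65.2 and 64.4 CPM in MAVS-guide cells (-0.63 ± 0.07, adjusted p = 5.97e-07). CD274, which encodes PD-L1, stood at 10.1 and 10.5 CPM against 13.6 and 15.3 CPM (-0.49 ± 0.10, adjusted p = 0.00161), a call that needed MAVS replicate 2, and SCR cells held 55.7 and 55.9 CPM. The galectin gene LGALS9 (-0.85 ± 0.12), the inflammatory caspase gene CASP1 (-0.60 ± 0.10), the T cell costimulator gene TNFRSF9 (-0.56 ± 0.10) and CD47, the signal against phagocytosis (-0.45 ± 0.06), were also lower.

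Inflammatory NF-kB targets showed the opposite pattern to the antiviral effectors, with a clear gap after MPS1i and little of one under DMSO. IL6 (ENSG00000136244, chromosome 7, 22725884 to 22732002) stood at 42.5 and 42.7 CPM in STING-guide cells, against 95.6 and 95.3 CPM in MAVS-guide cells after MPS1i. Under DMSO it stood at 13.8 and 14.4 CPM in STING-guide cells, against 14.8 and 15 CPM in MAVS-guide cells. The neutrophil chemokine CXCL8 (chromosome 4, 73740541 to 73743716) stood at 58.0 and 58.4 CPM against 112 and 115 CPM after MPS1i, and at 11.9 and 13.2 CPM against 14.2 and 11.8 CPM under DMSO. After the pulse, the STING-guide levels of IL6 and CXCL8 lay closer to the DKO levels (35.9 and 36.9 CPM, and 34.7 and 36.3 CPM) than to the SCR levels (124 and 128 CPM, and 193 and 204 CPM). IL6 was 2.24-fold lower (-1.16 ± 0.06, adjusted p = 3.69e-13) and CXCL8 1.95-fold lower (-0.96 ± 0.06, adjusted p = 2.31e-11). Their differences of effects were -1.08 ± 0.10 (adjusted p = 3.92e-08) and -0.89 ± 0.11 (adjusted p = 5.85e-06).

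Of 30 NF-kB and inflammation genes, 16 were lower and none was higher after MPS1i (median -0.32), and 1 was called higher without STING replicate 2. Of all genes, 5.83% were lower and 4.9% higher after MPS1i. Under DMSO none of the list was lower and 3 were higher (median 0.03), against 2.15% and 2.48% of all genes. A negative difference of effects was called in 12 (1.94% of all genes) and a positive one in none. The feedback inhibitor TNFAIP3, which encodes A20, differed by -0.83 ± 0.05 after MPS1i and 0.10 under DMSO (difference of effects -0.92 ± 0.08), and the survival factor BIRC3 by -0.76 ± 0.05 and 0.00 (difference of effects -0.76 ± 0.07). TNIP1, a partner of A20, differed by -0.54 ± 0.05 and lies on chromosome 5 beyond STING1, a stretch described further on. Immediate early genes of the AP-1 group, which respond within minutes to growth and stress signals, were lower in 11 of 21 cases and higher in none after MPS1i (median -0.27), or in 7 cases without MAVS replicate 2, and 3 were lower under DMSO. EGR1 stood at 11.9 and 13.2 CPM against 35.9 and 36.4 CPM (-1.53 ± 0.11), and FOSB (-1.24 ± 0.16), ATF3 (-0.95 ± 0.08), JUN (-0.64 ± 0.08) and FOSL1 (-0.41 ± 0.07) were lower too. The nuclear receptor genes NR4A1, NR4A2 and NR4A3, which belong to the same fast class and were added as a list after the values were seen, were all lower after MPS1i (median -0.65) and none was called under DMSO.

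**Figure D3:**
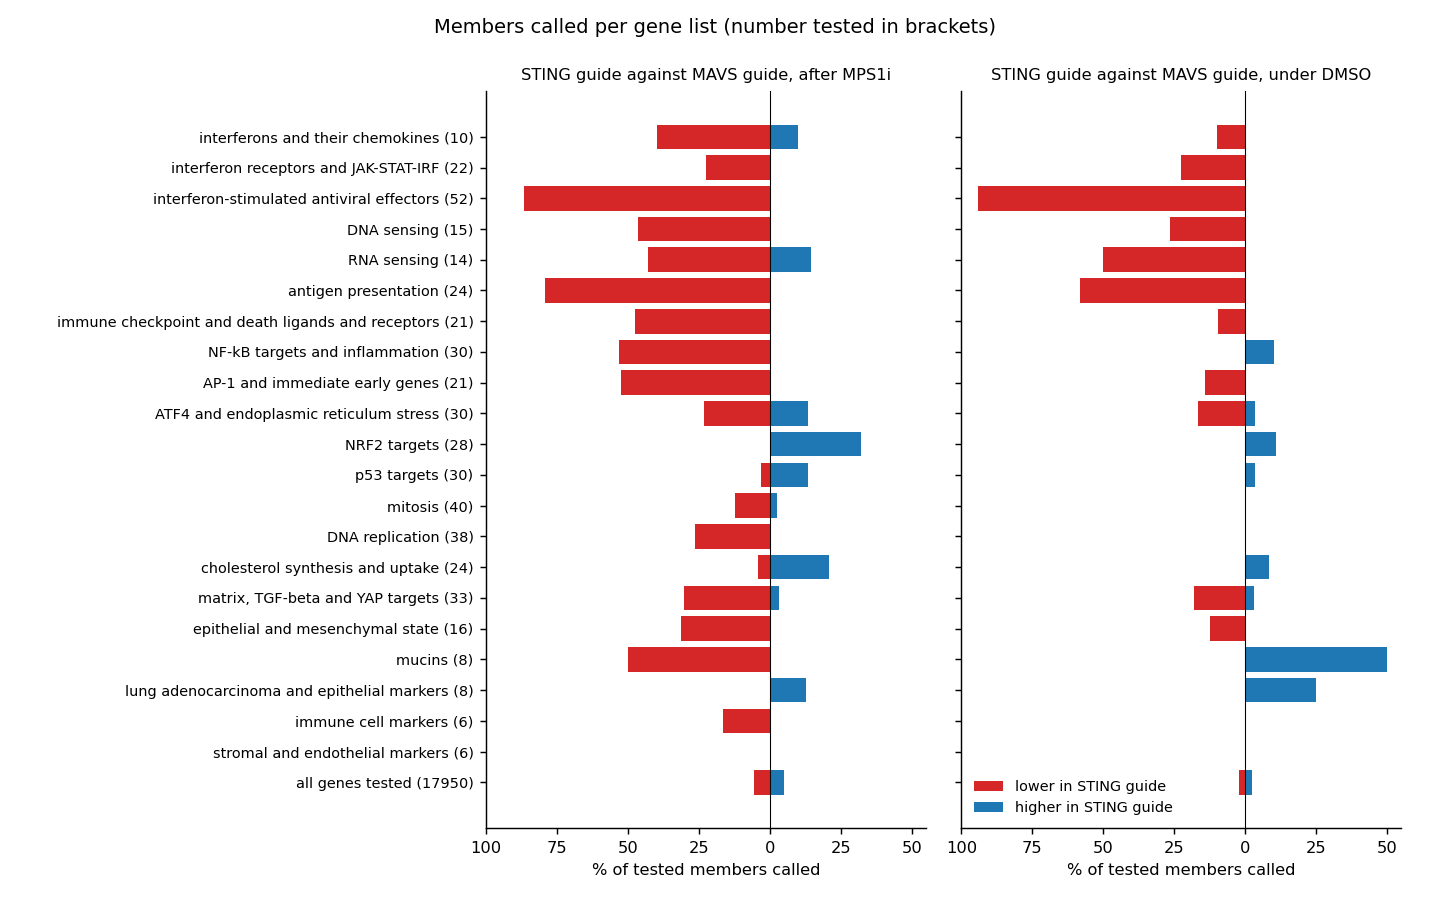
Bars give the share of each list's tested members (numbers in brackets) called lower (red, to the left) or higher (blue, to the right) in STING-guide cells than in MAVS-guide cells, after MPS1i in the left panel and under DMSO in the right panel. Antiviral effectors reach 45 and 49 of 52 lower members, NF-kB targets 16 and 0 of 30, and mucins 4 lower members after MPS1i and 4 higher members under DMSO.

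The gap in 2 of the mucins was called in both conditions, with opposite signs. MUC16, the cell surface mucin known as CA125 (chromosome 19, 8848844 to 8981342), stood at 106 and 111 CPM in STING-guide cells, against 144 and 156 CPM in MAVS-guide cells after MPS1i. Under DMSO it stood at 185 and 187 CPM in STING-guide cells, against 79.0 and 77.8 CPM in MAVS-guide cells. The log2 fold change was -0.46 ± 0.05 after MPS1i (adjusted p = 4.39e-07) and 1.24 ± 0.05 under DMSO (adjusted p = 3.53e-15), a difference of effects of -1.70 ± 0.07. The secreted airway mucin MUC5AC did the same, with -0.36 ± 0.07 after MPS1i and 1.06 ± 0.09 under DMSO (difference of effects -1.42 ± 0.11). MUC13 (-0.38 ± 0.04) and MUC1 (-0.32 ± 0.09) were lower after MPS1i and were not called under DMSO (-0.12 and -0.11), MUC1 with a call that was lost without either STING library or without MAVS replicate 2. Of 8 mucins, 4 were lower after MPS1i (median -0.37), where 5.83% of all genes were. Under DMSO 4 were higher (median 1.01), where 2.48% of all genes were. A negative difference of effects was called in 4 mucins and in 1.94% of all genes.

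Among the other genes with the most negative differences of effects, CTD-2270P14.2 (-2.62 ± 0.49), the pseudogene PLD5P1 (-1.93 ± 0.44), the kinase gene WNK4 (-1.74 ± 0.38) and LINC02605 (-1.69 ± 0.39) had low levels, under 3 CPM in all 8 libraries of the 2 lines. PLD5P1, WNK4 and LINC02605 lost their calls after MPS1i without some single libraries. Large falls that were not immune genes by name included the semaphorin receptor gene PLXNC1 (-1.94 ± 0.16), the nuclear envelope protein gene SYNE3 (-1.90 ± 0.27) and the kallikrein gene KLK10, at 5.80 and 4.29 CPM in STING-guide cells against 17.3 and 20.1 CPM in MAVS-guide cells (-1.90 ± 0.12).

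Genes that were higher in STING-guide cells were mostly ones that fall with the pulse in SCR cells. ACO1 (ENSG00000122729, chromosome 9, 32384603 to 32454769), the cytosolic aconitase that becomes the iron regulatory protein IRP1 when iron is short, stood at 57.6 and 60.1 CPM in STING-guide cells, against 25.7 and 23.2 CPM in MAVS-guide cells after MPS1i. Under DMSO it stood at 132 and 130 CPM in STING-guide cells, against 100 and 101 CPM in MAVS-guide cells, and after MPS1i at 144 and 135 CPM in DKO cells and 14 and 14.8 CPM in SCR cells. The order after the pulse was thus DKO, STING guide, MAVS guide and SCR from high to low, with no overlap between libraries. ACO1 was 2.41-fold higher (1.27 ± 0.06, adjusted p = 1.27e-13), with a difference of effects of 0.89 ± 0.08 (adjusted p = 3.67e-08). A list of 12 iron handling genes was added after the values were seen. Of these, 4 were higher and none was lower after MPS1i, against 4.9% and 5.83% of all genes. Among the 4 was the transferrin receptor gene TFRC, at 636 and 613 CPM against 494 and 476 CPM.

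Other large rises were CLSTN2, a synaptic adhesion gene (1.39 ± 0.13), CMTM4, a relative of the PD-L1 stabiliser CMTM6 (0.88 ± 0.05), the host gene SNHG22 (0.97 ± 0.17) and the cysteine protease inhibitor gene CST1 (0.84 ± 0.17). CMTM4 stood at 125 and 129 CPM in STING-guide cells, against 71.4 and 67.0 CPM in MAVS-guide cells, and at 156 and 160 CPM in DKO cells and 46.7 and 45.3 CPM in SCR cells. The noncoding RNAs RP11-498C9.15 (0.86 ± 0.10) and LINC01003 (1.32 ± 0.26) were higher as well. The remaining genes of this set, CTC-429P9.3, TRAPPC6A, ELAPOR1, MIR600HG and RP11-147L13.12, stood under 4 CPM after MPS1i, with values from 0.85 to 1.40, and lost their calls without 1 or more single libraries, each of them without STING replicate 2.

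NRF2 targets, the enzymes that handle oxidants and make NADPH, were higher in 9 of 28 cases and lower in none after MPS1i (median 0.10). Of all genes, 4.9% were higher and 5.83% lower after MPS1i. Under DMSO 3 of the list were higher, against 2.48% of all genes. AKR1B10, an aldo-keto reductase, stood at 514 and 528 CPM in STING-guide cells, against 346 and 348 CPM in MAVS-guide cells (0.59 ± 0.04, adjusted p = 9.42e-11), and DKO cells held 502 and 501 CPM and SCR cells 410 and 417 CPM. The cystine transporter gene SLC7A11 stood at 2039 and 1930 CPM against 1540 and 1473 CPM (0.40 ± 0.05). SRXN1 (0.31 ± 0.05), AKR1C3 (0.30 ± 0.05) and ALDH3A1 (0.30 ± 0.05) followed, and SRXN1 lies between the end of chromosome 20 and MAVS, a stretch described further on. NQO1, the usual marker of NRF2 activity, stood at 0.05 and was not called.

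Genes of the translation machinery, grouped only after the values were seen, were also called higher more often than lower after MPS1i, when 4.9% of all genes were called higher and 5.83% lower. Of 80 ribosomal protein genes, 12 were higher and 2 lower after MPS1i (median 0.05), while under DMSO, when 2.48% of all genes were called higher and 2.15% lower, none was higher and 14 were lower (median -0.13). Of 67 translation factor genes, 13 were higher and none was lower after MPS1i (median 0.04), and 3 were lower under DMSO. The initiation factor EIF4B stood at 1590 and 1551 CPM in STING-guide cells, against 1058 and 1034 CPM in MAVS-guide cells, and the elongation factor EEF2 differed by 0.39 ± 0.05. The size of these differences was small, and only EIF4B passed 0.5 on the log2 scale among the called genes of the 2 lists. Further lists added in this way were amino acid transporters of the SLC7A family (3 higher and 1 lower of 7), fatty acid synthesis and desaturation (4 and 2 of 18, with the desaturase gene SCD at 0.44 ± 0.04), aldo-keto reductases and aldehyde dehydrogenases (8 and 0 of 26), replication-dependent histones (6 and 5 of 60) and ZNF genes (4 and 34 of 445). The shares of lower members among the histones and ZNF genes lay near the 5.83% of all genes. The 6 higher histones were a larger share, and the 4 higher ZNF genes a smaller one, than the 4.9% of all genes. Below zero lay 316 of the 445 ZNF genes (median -0.08), against 9269 of all 17950.

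Cell cycle genes differed by small amounts, with values between -0.39 and 0.26, and those called were mostly lower in STING-guide cells. Below zero after MPS1i lay 30 of 40 mitosis genes and 33 of 38 DNA replication genes, against 9269 of all 17950. Under DMSO none of the 40 mitosis genes was called. After MPS1i 5 were lower and 1 was higher (median -0.06), against 5.83% and 4.9% of all genes. The lower count was 3 without STING replicate 1, 0 without STING replicate 2, 1 without MAVS replicate 1 and 2 without MAVS replicate 2. TOP2A, a topoisomerase of dividing cells, stood at 241 and 243 CPM in STING-guide cells, against 254 and 243 CPM in MAVS-guide cells (-0.04 ± 0.05, adjusted p = 0.74). The securin gene PTTG1 (-0.39 ± 0.09), the kinesin gene KIF11 (-0.21 ± 0.06), ECT2, which drives cytokinesis (-0.17 ± 0.05), and the kinase PLK1 (0.26 ± 0.08) were called, and all lost the call without STING replicate 2. Of 38 DNA replication genes, 10 were lower and none was higher after MPS1i (median -0.16), or 6 without STING replicate 1 and 4 without any 1 of the other 3 libraries, and none was called under DMSO. The origin licensing factor CDC6 (-0.32 ± 0.06), MCM10 (-0.31 ± 0.07), GINS1 (-0.29 ± 0.08), the nucleotide reductase subunit RRM2 (-0.27 ± 0.06) and MCM3 (-0.21 ± 0.06) had the smallest p-values, and GINS1 and MCM3 lost their calls without single libraries.

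The p53 target list held 4 higher and 1 lower of 30 members, and 2 higher without any 1 of STING replicate 2, MAVS replicate 1 or MAVS replicate 2. Of all genes, 4.9% were higher and 5.83% lower after MPS1i. ZMAT3, an RNA-binding p53 target, stood at 71.5 and 74.4 CPM in STING-guide cells, against 42.6 and 40.3 CPM in MAVS-guide cells (0.82 ± 0.05, adjusted p = 6.45e-11). DKO cells held 130 and 135 CPM of ZMAT3 and SCR cells 25.9 and 27.0 CPM. SPATA18, which acts in mitochondrial quality control, differed by 0.72 ± 0.08. The damage response genes DDB2 (0.28 ± 0.08) and GADD45A (-0.35 ± 0.08) and the receptor gene EDA2R (0.22 ± 0.07) lost their calls without single libraries, and CDKN1A, the best known p53 target, stood at 0.10 and was not called.

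Stress and lipid lists were mixed, and of all genes 5.83% were called lower and 4.9% higher after MPS1i. Of 30 ATF4 and endoplasmic reticulum stress genes, 7 were lower and 4 higher after MPS1i (median -0.01), with 1 higher without STING replicate 2 or MAVS replicate 1 and 2 without MAVS replicate 2. WARS1, a tRNA synthetase that interferon also induces, stood at 329 and 330 CPM in STING-guide cells, against 586 and 595 CPM in MAVS-guide cells (-0.84 ± 0.04), while the stress factor DDIT3 (-0.59 ± 0.10), PPP1R15A, which restarts translation (-0.40 ± 0.06), and the chaperone gene HSP90B1 (-0.26 ± 0.05) were lower by less. ASNS, which makes asparagine, did not pass (-0.18 ± 0.06, adjusted p = 0.0721). Of 24 cholesterol genes, 5 were higher and 1 lower after MPS1i, with 0 to 2 higher when single libraries were left out, the value of 0 being that without STING replicate 2 or MAVS replicate 1. The synthesis genes DHCR7 (0.25 ± 0.06), FDPS (0.19 ± 0.05) and MVK (0.37 ± 0.12) and the sterol carrier gene STARD4 (-0.19 ± 0.05) all lost their calls without single libraries.

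Of 33 matrix, TGF-beta and YAP genes, 10 were lower and 1 higher after MPS1i (median -0.10), against 5.83% and 4.9% of all genes. Under DMSO 6 were lower and 1 higher, against 2.15% and 2.48% of all genes. COL4A1, a basement membrane collagen, stood at 139 and 142 CPM in STING-guide cells, against 215 and 212 CPM in MAVS-guide cells (-0.60 ± 0.05, adjusted p = 1.61e-09), and the matricellular gene CCN1 (-0.64 ± 0.08), the fibronectin receptor gene ITGA5 (-0.58 ± 0.07), COL4A2 (-0.41 ± 0.06) and the urokinase receptor gene PLAUR (-0.46 ± 0.07) were lower. In the epithelial and mesenchymal list, 5 of 16 were lower and none was higher, from both states: the tight junction genes CLDN4 (-0.75 ± 0.13) and OCLN (-0.64 ± 0.11), the mesenchymal factor SNAI2 (-0.58 ± 0.09), the receptor kinase AXL (-0.34 ± 0.05) and the filament gene VIM (-0.16 ± 0.05), whose call was lost without any 1 of the 4 libraries.

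Markers of cell identity were checked against the label. Of 16 lung adenocarcinoma and epithelial markers, 8 had enough counts to be tested, namely NAPSA, KRT7, KRT8, KRT18, EPCAM, CEACAM5, CEACAM6 and ELF3. The lung factor NKX2-1 and the club cell gene SCGB1A1 had no counts in the 4 libraries, the surfactant genes SFTPA1, SFTPB and SFTPC had at most 2 counts in any of them, and KRT19 had at most 1. The adhesion gene CEACAM6 stood at 1427 and 1404 CPM in STING-guide cells, against 1084 and 1093 CPM in MAVS-guide cells (0.38 ± 0.04), the 1 call in this list. Of 17 immune cell markers 6 were tested, and CD68, a lysosomal protein of macrophages and other cells, was lower at 192 and 204 CPM against 289 and 293 CPM (-0.56 ± 0.07), while the leukocyte marker PTPRC had at most 5 counts and the T cell gene CD3D none in these 4 libraries. Of 14 stromal and endothelial markers 6 were tested and none was called, DCN at -0.16 and LUM at -0.25 included.

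The gap between the lines followed the effect of the pulse in SCR cells, which comes from 4 other libraries. Of the 1047 genes lower in STING-guide cells, 798 rose with the pulse in SCR cells (76.2%, or 17.1% of the genes that rose there) and 80 fell, against 26% and 24% of all genes that rose or fell there. Of the 879 higher genes, 679 fell in SCR cells (77.2%, or 15.7% of the genes that fell there) and 59 rose. Among the 636 genes that rose in SCR by more than 2 on the log2 scale, 30.2% were lower and 0.314% higher in STING-guide cells. Among the 591 genes between -2 and -1 in SCR, 16.1% were higher and 1.02% lower. Across all 17950 genes, which are not independent replicates and share the fit's spread, Pearson's r between the 2 log2 fold changes was -0.295 and Spearman's rho was -0.349. A gene that the pulse raised in SCR cells thus tended to be lower with MAVS alone than with STING alone, and a gene that it lowered tended to be higher.

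**Figure D4:**
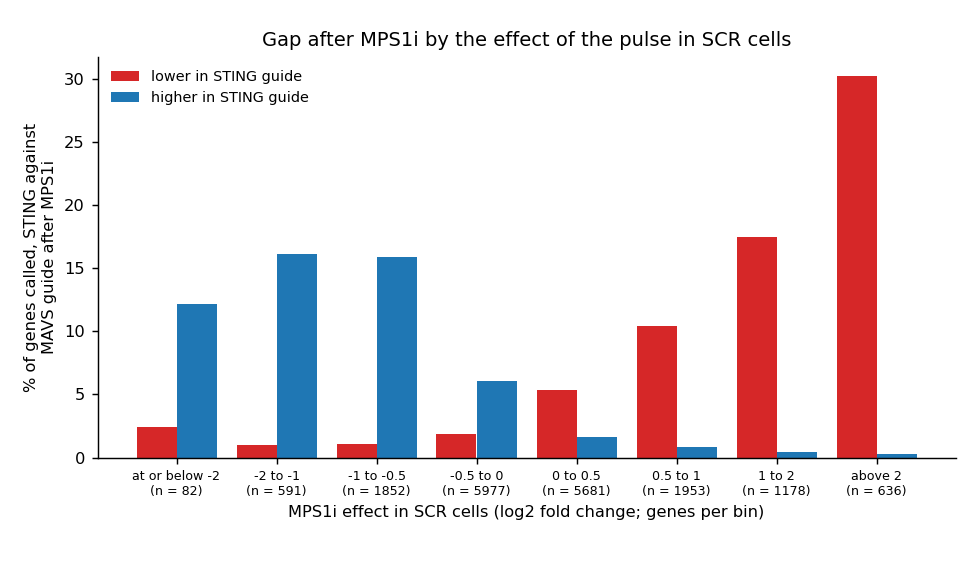
Genes are binned on the x axis by the log2 fold change of MPS1i over DMSO in SCR cells, and bars give the percentage of each bin called lower (red) or higher (blue) in STING-guide cells than in MAVS-guide cells after MPS1i. The red bars climb to 30.2% in the bin above 2, and the blue bars peak at 16.1% between -2 and -1.

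Genes next to the targeted loci stood apart, a pattern seen after the values were known. Of all genes tested, 5.83% were lower and 4.9% higher in STING-guide cells after MPS1i. On chromosome 5 beyond STING1, 41 of 296 tested genes were lower in STING-guide cells (13.9%) and 1 was higher. The 235 genes there with at least 1 CPM had a median of -0.10 after MPS1i and -0.16 under DMSO, with 74% and 84.3% of them below zero. Over all 13890 genes at this level the medians were -0.0025 and -0.0255, with 50.6% and 57.7% below zero. On chromosome 5 before STING1 the medians were -0.030 and -0.024. Between the short-arm end of chromosome 20 and MAVS, 10 of 53 genes were higher in STING-guide cells (18.9%) and 1 was lower, with a median of 0.15 after MPS1i and 0.064 under DMSO over 40 genes. Over all of the chromosome beyond MAVS the medians were 0.025 and -0.0125, but in the first 10 Mb beyond it they were 0.081 and 0.061, so the shift did not end at MAVS.

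Set against the SCR mean of the same treatment, the libraries divided by guide. The chromosome 5 stretch lay at -0.060 and -0.061 in STING-guide libraries after MPS1i and -0.106 and -0.118 under DMSO, and between -0.110 and -0.0734 in DKO libraries, against 0.0168 to 0.029 in the 4 MAVS-guide libraries. The chromosome 20 stretch lay between -0.133 and -0.0771 in MAVS-guide and between -0.176 and -0.0533 in DKO libraries, against -0.0622 to 0.051 in STING-guide libraries, so that the highest DKO library lay above the lowest STING-guide library. The SCR libraries are shared by all these ratios, and the cause was not tested. The fit was also repeated without the genes of both stretches, an alternative chosen after seeing the data, with scaling and adjustment computed anew. It called 946 genes lower and 946 higher after MPS1i, against 1047 and 879 with all genes. The stretches held 41 and 1 of the lower calls and 1 and 10 of the higher calls. Higher calls rose although genes were taken out, so their removal alone does not give these counts. The mitosis list then held 3 lower members in place of 5, PTTG1 lying in the chromosome 5 stretch. Lower members also fell from 11 to 9 in the AP-1 list and from 10 to 8 in the DNA replication list. The NF-kB list went from 16 to 15, ATF4 from 7 to 6, matrix from 10 to 9, and the epithelial and mesenchymal list from 5 to 4. Such a fall need not mean that a member lay in a stretch. VIM stayed in the fit and lost its call there, as it did with RLE scaling of all genes. With that scaling the DNA replication, matrix and epithelial and mesenchymal lists also held 8, 9 and 4 lower members. The mitosis, AP-1, NF-kB and ATF4 lists kept 5, 11, 16 and 7.

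**Figure D5:**
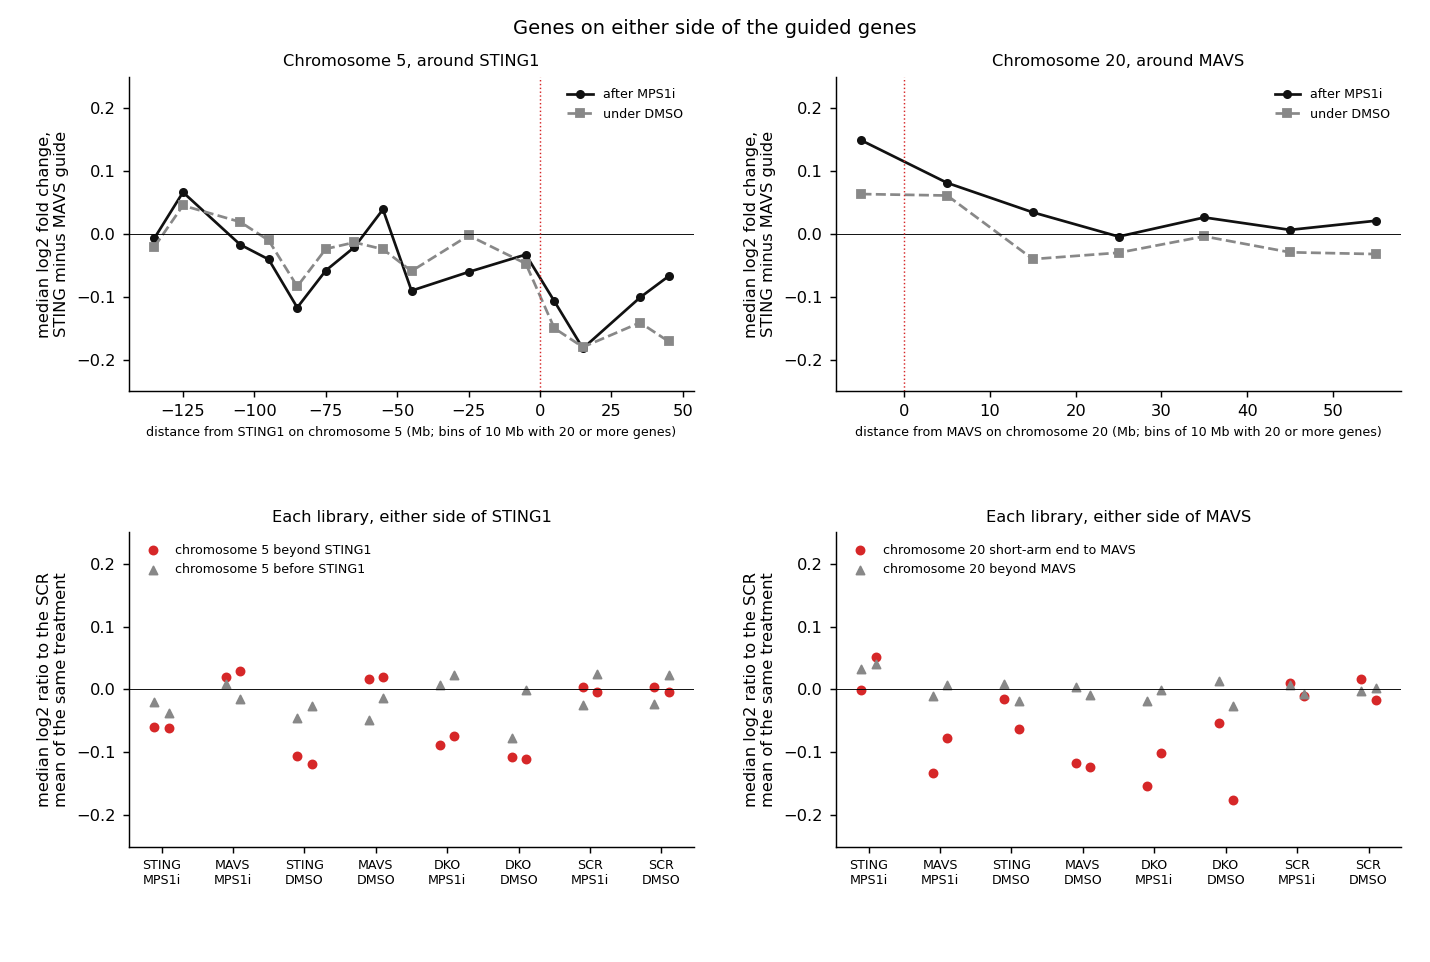
The upper panels give the median log2 fold change of STING guide over MAVS guide in 10 Mb bins by distance from STING1 (left) and MAVS (right), after MPS1i and under DMSO; the lower panels give each library's median log2 ratio to the SCR mean on either side of the guided gene. Beyond STING1 the medians drop to about -0.18 in 1 bin, and the red points of STING-guide and DKO libraries lie below those of MAVS-guide and SCR libraries, while the bins from the chromosome 20 end to MAVS lie at 0.15 and 0.064.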

How the data were processed

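The values are raw counts per gene, deposited by the authors as 1 table of 16 libraries and 60612 genes. Libraries were made from poly(A)-selected RNA with a strand-marking kit and read on DNBSEQ, per the labels, and the submitters' processing notes name Trim Galore, cutadapt, Trimmomatic, STAR, featureCounts and GRCh38. Versions and the strand setting are not given in the sources used here, so reads of overlapping and antisense genes may not be told apart. No value column lacked a sample.

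From these counts, filterByExpr (minimum count 10, minimum total 15) kept 17950 genes, 14113 of them protein coding, over libraries of 19893784 to 49769938 counts. edgeR 4.0.16 in R 4.3.3 fitted all 8 groups of 2 libraries with TMM scaling and a robust quasi-likelihood F-test, two-sided, with Benjamini-Hochberg adjustment over all genes of a comparison and a threshold of 0.05. CPM values use TMM-scaled totals, and a standard error is the size of the log2 fold change over the root of the F statistic. Simulated counts of 17950 genes served to test this for the comparison after MPS1i. It called 93% of 100 genes changed by 2-fold and 69% of 100 changed by 0.5 on the log2 scale, with 7 false calls. The changed genes were drawn only from those with a mean of at least 1 CPM, so these shares do not cover genes below it.

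The genes and lists were chosen with earlier results of these data known, and 9 lists, the chromosome-end comparison and the promoter letters after the values were seen. Named were 22 chosen genes, the 12 largest called differences each way with a mean of at least 1 CPM, the 6 largest differences of effects each way, and up to 5 called members of each list by adjusted p; a few of these are not reported here. Promoters matched 11911 of 17950 genes in RefSeq (GRCh38.p14). Alternatives were DESeq2 1.42.0, RLE scaling, other filters, a replicate block, thinning to equal depth, only the compared groups, and leaving out libraries.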

Additional observations from a re-analysis of the deposited data

Results flagged for a closer look

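The pulse's effect differed between the lines, by a test of the difference itself (STING guide minus MAVS guide, the quasi-likelihood test of edgeR, adjusted over all genes), in 700 genes, and the genes below are those of them named in the report. The values are log2 differences of effects, and a positive one means that the pulse added more, or removed less, in STING-guide cells.

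For the antiviral effectors they were 2.61 for IFIT1, 2.50 for HERC5, 2.46 for MX1, 2.29 for IFI44L, 1.996 for IFIT3, 1.99 for OAS2 and 1.71 for ISG15. The RNA sensors DDX58 and IFIH1 had 1.17 and 1.12. CCL5 had 0.58, a call that was lost without STING MPS1i replicate 2, STING DMSO replicate 1 or MAVS DMSO replicate 1.

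MHC class I genes had -0.59 (HLA-B) and -0.47 (B2M), and the inflammatory genes -1.08 (IL6), -0.92 (TNFAIP3) and -0.89 (CXCL8). MUC16 had -1.70, with -0.46 and 1.24 for the gap itself after MPS1i and under DMSO. The weakly expressed CTD-2270P14.2, PLD5P1, CCL20, WNK4 and LINC02605 had -2.62, -1.93, -1.92, -1.74 and -1.69. Except for CTD-2270P14.2, each of these 5 lost the call when single libraries were left out.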

How the results depend on the processing

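Replicates 1 and 2 of different groups deviated together little (28 pairs of groups, correlations from -0.15 to 0.22). The value was 0.016 for STING guide and MAVS guide after MPS1i. Such correlations cannot show whether replicates of the same number were handled together. With the replicate number as a block, the counts were 1938 after MPS1i, 832 under DMSO and 721 for the difference of effects. The count after MPS1i was 1683 with DESeq2, 1899 with RLE scaling, 1722 after thinning, 2033 with no filter, 2039 with a filter at 1 CPM and 2530 when only the groups compared were fitted. Leaving out 1 library gave 978 to 1176 calls, 468 to 519 of them higher and 510 to 657 lower, 394 to 458 under DMSO, and 369 to 517 for the difference of effects. That last count was 1141 when only the groups compared were fitted. Of 129 named genes, 123 were called after MPS1i. Losses were 6 with DESeq2, 10 after thinning, 3 with no filter, 3 with the block and 17 to 24 per library left out. The only sign change was in IFNB1, which was not called, at -0.034 without STING MPS1i replicate 2 (range -0.034 to 1.74 over the libraries left out). Depth limits IFNB1, IFNL1 and AIM2, which had under 100 counts in each of the 4 libraries. With 2 libraries a group and 8 residual degrees of freedom, a missed call does not show that levels were alike.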
